A study of Mus musculus with 2 samples.

Results

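Cish and the Socs genes encode the 8 members of the CIS and SOCS family of feedback inhibitors, and they were followed in RAW264.7 cells given the preparation that the labels call FAPD10-exos. The members are the rows Cish and Socs1 to Socs7, chosen by gene symbol as 8 of the 56791 genes in the count table, and all 8 were found. The family was chosen with values of this same comparison in view, Cish among them, so the contrasts below are a description of the libraries and carry no test. RAW264.7 is a mouse macrophage line that grew out of a virus-induced leukaemia. The 2 cultures were wild type and grew in DMEM with 20% fetal bovine serum and 1% penicillin-streptomycin. The FAPD10-exos culture received 10000000 particles of FAPD10-exos and, for the same 24 h, 20 ng of mouse recombinant IL-4. The vehicle culture received this IL-4 for as long but no particles. The cell source of the particles and the composition of the vehicle are not stated in the labels, and both cultures carried IL-4, so the response to IL-4 itself has no baseline here.

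IL-4, GM-CSF, interferons and many hormones bind receptors that carry JAK kinases, which phosphorylate STAT transcription factors. STATs then switch on genes that include those of CIS and several SOCS proteins, which bind back to the receptor or the kinase through an SH2 domain and dampen the signal. A C-terminal SOCS box, shared by the whole family, recruits elongins B and C and cullin 5, so that bound proteins can be ubiquitinated. In macrophages SOCS1 and SOCS3 are known as brakes on interferon-gamma and IL-6 signalling, and CIS as a brake on cytokines that act through STAT5.

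Each group held 1 library, with 37196241 counts in the FAPD10-exos and 36152743 in the vehicle library. Levels are given as CPM, counts per 1000000 of the TMM-scaled library size, and ratios are FAPD10-exos over vehicle. Ranges in parentheses are 95% counting intervals, exact Poisson for levels and exact Clopper-Pearson for ratios and shares. They cover counting error only and say nothing of the spread between cultures, so no difference here has a replicate check and no p-value was computed. Counts of 1 to 50 were even in 76.3% of genes in the FAPD10-exos and 75.1% in the vehicle library, so a fragment may often have been counted by each of its ends, which would make the intervals too narrow, and intervals from halved counts are given where they bear on a statement. The macrophage markers listed for the check were present, with a count for 12 of 12 genes and summed levels of 2258 CPM in the FAPD10-exos and 2455 CPM in the vehicle library. Among the 11 of them that averaged 1 CPM or more over the libraries, 2 were at least 1.5-fold higher and 1 lower. Over all genes at that level the shares were 17.1% higher and 19.8% lower. One of the higher, Adgre1, which encodes F4/80, had 6.94 against 2.38 CPM. The lower one, Ptprc, had 200 CPM in the FAPD10-exos and 311 CPM in the vehicle library. The part of these markers in the results on the family was not tested. Lists of stromal, skeletal muscle, endothelial, T cell, B cell and epithelial markers each summed to at most 0.731 CPM in the FAPD10-exos and 0.370 CPM in the vehicle library, and Col1a1, Myod1, Cd3e and Epcam were among those at 0 counts in both.

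Cish, the gene of CIS, was the one member that was clearly higher in the FAPD10-exos library. It had 84 counts there, against 10 in the vehicle library, which is 2.36 CPM (1.88 to 2.92) in the FAPD10-exos and 0.265 CPM (0.127 to 0.487) in the vehicle library. The levels do not overlap within counting error, and the ratio was 8.92 (4.62 to 19.3, or 3.53 to 28.9 with counts halved). Among the 12264 genes whose mean over both libraries reached 1 CPM, called measured, Cish had the fourth highest ratio. It passed that filter through the FAPD10-exos library alone, and all 10 measured genes under 0.5 CPM in the vehicle library were higher by the 1.5-fold rule, as the filter requires of any gene so low there. In a bulk library, more cells with Cish RNA and more Cish RNA per cell cannot be told apart.

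Cish spans bases 107173225 to 107179983 of chromosome 9, plus strand, in the coordinates of the deposited table, for which the sources used here name no mouse build. It is protein-coding and was counted over 6419 bases of exon. Of these, 11.5% also belong to exons of Gm17041 and Gm17040, a pair of genes annotated on the opposite strand. Gm17041, which lies wholly within Cish exons, had 34 counts in the FAPD10-exos and 1 in the vehicle library (ratio 36.1, 6.06 to 1468). Gm17040 had 3 counts in the FAPD10-exos and 0 in the vehicle library. Both were looked up after the values of Cish were seen. Whether counting used the strand is not given, so reads of Cish and of these antisense genes cannot be told apart. The 3 genes together had 121 counts in the FAPD10-exos and 11 in the vehicle library (ratio 11.7, 6.30 to 24.0). Whether a read in shared bases was counted for each gene is not given either. The sum may thus hold the same reads repeatedly, and its interval may be too narrow.

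A short stretch at the annotated start of Cish is shown because it carries the palindrome that STAT dimers recognise, and a stretch from Socs3 is shown beside it as the one other member with a match. The search covered windows from 250 bases before to 50 bases after the start in RefSeq on GRCm38.p6, which were given for 4 of the 8 members, Cish, Socs1, Socs3 and Socs4. The letters searched were TTCNNNGAA, the general STAT element, and the wider element preferred by STAT6, whose ends TTC and GAA stand 4 bases apart. The fixed letters of each read the same on both strands. Capitals mark matches to TTCNNNGAA.
Cish: gttTTCCTGGAAagTTCTTGGAAatctgtc
Socs3: gccTTCTTAGAAgggaggggggggaaagtg
The Cish stretch is chr9:107296656-107296685 on the plus strand, and its matches run from base 1 to 9 and from base 12 to 20, counted from the annotated start, so they lie in transcribed sequence just after it. In GENCODE M21, an annotation of the same build, the whole stretch lies inside the first exon of a Cish transcript that starts further upstream. The Socs3 stretch is chr11:117969494-117969523 on the minus strand, with its match upstream of the start, from base -154 to -146.

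The windows of Socs1 and Socs4 held no TTCNNNGAA, and none of the 4 windows held the wider element, which says only that those letters are not in these bases. Among 32851 windows in the table, some of them from the same gene, 8.30% held at least 1 TTCNNNGAA and 0.457% held 2 or more, as that of Cish does, while 6.95% held the wider one. Of the 41 measured genes with 2 or more matches in a window, 6 were at least 1.5-fold higher, Cish among them, and 6 lower, the log2 ratios having a median of 0.07. Of 7817 measured genes with no match, 15.3% were higher and 19.9% lower, the median being -0.01.

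Of the other cytokine-inducible members, Socs1 and Socs2 were scarce, Socs3 was measured, and none was clearly higher. Socs1, which inhibits JAK kinases directly and restrains interferon signalling, had 6 counts in the FAPD10-exos and 0 in the vehicle library. With a floor of 3 counts in place of the vehicle 0, the ratio was 2.12, which is no lower bound. The counting interval of Socs1 starts at a ratio of 1.25, but with counts halved it starts at 0.439 and includes 1. Socs2, the growth hormone brake, had 0 counts in both libraries, and the floor of 3 counts stands at 0.0843 CPM in the FAPD10-exos and 0.0794 CPM in the vehicle library. Socs3, which binds receptors such as gp130 and blocks STAT3 activation, had 120 counts in the FAPD10-exos and 158 in the vehicle library. Its levels were 3.37 CPM (2.80 to 4.03) in the FAPD10-exos and 4.18 CPM (3.55 to 4.89) in the vehicle library, which overlap, with a ratio of 0.807 (0.631 to 1.03). Cish and Socs3, both known as STAT-induced genes, had log2 ratios whose counting intervals lay apart, at 3.16 (2.21 to 4.27) for Cish and -0.31 (-0.66 to 0.04) for Socs3. Without Cish, these genes together had 126 counts in the FAPD10-exos and 158 in the vehicle library (ratio 0.847, 0.665 to 1.08).

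The other members, Socs4 to Socs7, were the abundant ones and were level or lower in the FAPD10-exos library. Socs4, linked to the turnover of the EGF receptor, had 594 counts in the FAPD10-exos and 1142 in the vehicle library, or 16.7 CPM (15.4 to 18.1) against 30.2 CPM (28.5 to 32.0). The levels were apart, and Socs4 was 1.81-fold lower (1.64 to 2.002) in the FAPD10-exos library. Socs7, which binds insulin receptor substrates, had 445 counts in the FAPD10-exos and 692 in the vehicle library, or 12.5 CPM (11.4 to 13.7) against 18.3 CPM (17.0 to 19.7). It was 1.46-fold lower (1.30 to 1.65), just short of 1.5-fold. Socs6, which binds the KIT receptor, had 632 counts in the FAPD10-exos and 820 in the vehicle library, or 17.8 CPM (16.4 to 19.2) against 21.7 CPM (20.2 to 23.2). It was 1.22-fold lower (1.10 to 1.36). Socs5, described as an inhibitor of IL-4 receptor signalling, had 378 counts in the FAPD10-exos and 433 in the vehicle library. At 10.6 CPM (9.58 to 11.7) in the FAPD10-exos and 11.5 CPM (10.4 to 12.6) in the vehicle library its levels overlapped, with a ratio of 0.927 (0.806 to 1.07). The intervals of Socs4, Socs6 and Socs7 stayed below 1 with counts halved.

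**Figure D1:**
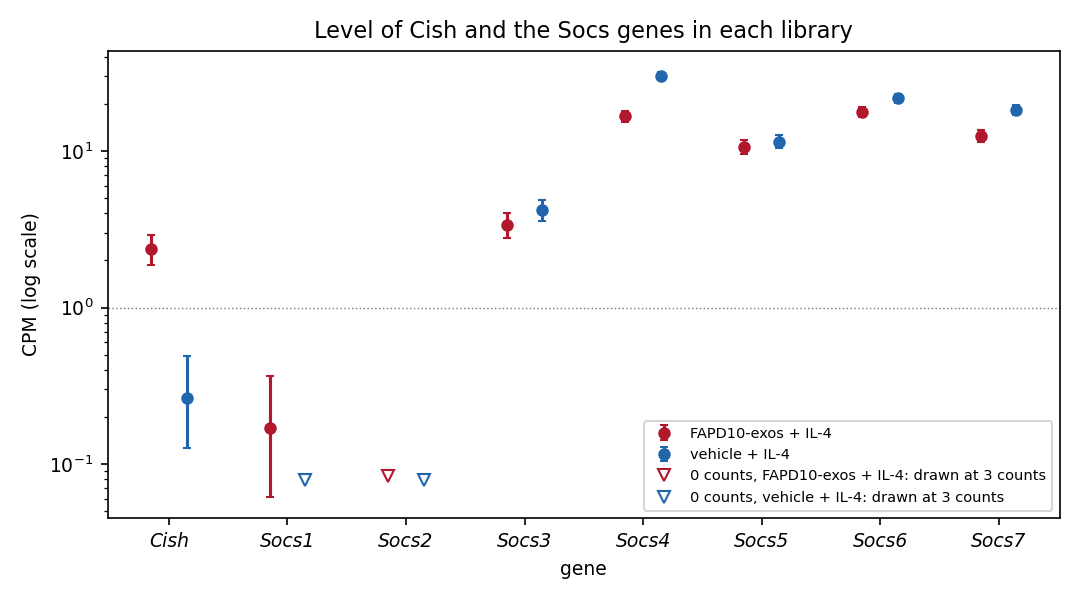
Level of each family member in the FAPD10-exos library (red, left) and the vehicle library (blue, right), in CPM on a log axis. Bars are exact 95% Poisson intervals, open triangles stand for 0 counts and are drawn at 3 counts, and the dotted line is 1 CPM. Among genes with counts in both libraries, Cish is the one whose FAPD10-exos point, at 2.36 CPM, lies well above its vehicle point, at 0.265 CPM. Socs1, at 0.169 CPM in the FAPD10-exos library, had 0 counts in the vehicle library, so its gap is not resolved.

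In the deposited coordinates Socs1 lies on chromosome 16 from 10600104 to 10603400, Socs2 on chromosome 10 from 95221224 to 95253042 and Socs3 on chromosome 11 from 117856905 to 117860873, all on the minus strand. On the plus strand, Socs4 lies on chromosome 14 from 47514388 to 47533559, Socs5 on chromosome 17 from 87415107 to 87445267 and Socs7 on chromosome 11 from 97253261 to 97289368. Socs6 lies on chromosome 18. All are protein-coding, and none of these shares exon bases with another gene of the table.

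By the rule used here, a measured gene counts as higher or lower when its ratio is at least 1.5-fold with an interval that leaves out 1. Of the 8 members, 7 had a count and 6 were measured. Among these 6, Cish was higher, where 17.1% of all measured genes were, and Socs4 was lower, where 19.8% of all measured genes were. The rule chose the family on this contrast, so nothing is read from these counts. The median log2 ratio of the 6 was -0.30, beside 0.01 over all measured genes, and 5 of the 6 lay below 0, as did 49.2% of all measured genes. Scaling by total counts moved the median of all measured genes by -0.13 in log2, and Socs7 then also passed as lower, at -0.68, as it did with median-of-ratios scaling, at -0.59.

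Ratios were lower for longer transcripts across the whole data set, and Socs4 to Socs7 have long ones. Over 9966 measured protein-coding genes Spearman's rho between ratio and principal transcript length was -0.60, a value across genes, which are not independent replicates. Genes as long as Socs4 and Socs7, with transcripts of 6877 and 7015 nt, had running medians of -0.62 and -0.63 in log2. For the lengths of Socs6, at 6036 nt, and Socs5, at 4648 nt, the medians were -0.53 and -0.37, whereas for Socs3, at 2552 nt, and Cish, at 2850 nt, they were 0.10 and 0.01. Taken relative to them, Socs4 stood at -0.23 in log2, no longer 1.5-fold lower, and Socs3 at -0.41. Socs5, Socs6 and Socs7 stood at 0.26, 0.24 and 0.08, above the median of their length, and the median of the 6 members was 0.16. Cish stood at 3.15, and at 3.38 when the exon length of the deposited table was used in place of transcript length. After the transcript correction, 1 of the 6 members was higher, Cish, where 10.2% of 9975 genes were, and 0 were lower, where 12.1% were.

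**Figure D2:**
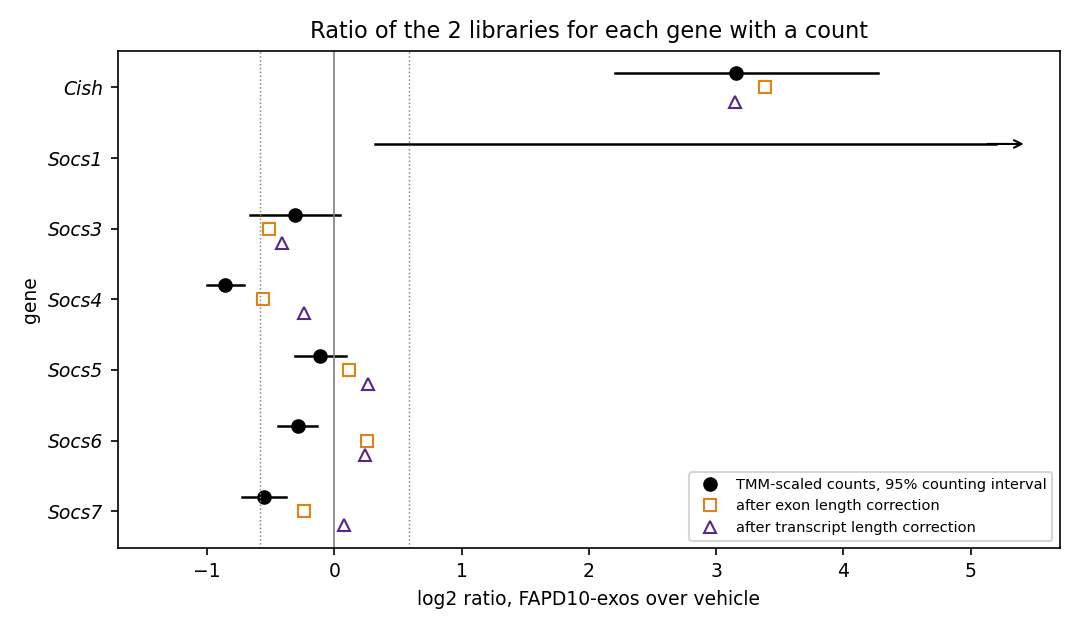
Log2 ratio of FAPD10-exos over vehicle for the 7 members with a count. Black circles with lines are TMM-scaled counts with 95% counting intervals, squares and triangles the values after correction for exon length and for transcript length, dotted lines 1.5-fold, and the Socs1 line, with 0 vehicle counts, has no upper end. Cish stays above 3 on all scales shown, while Socs4 is at -0.86 uncorrected and -0.23 with the transcript correction.

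**Figure D3:**
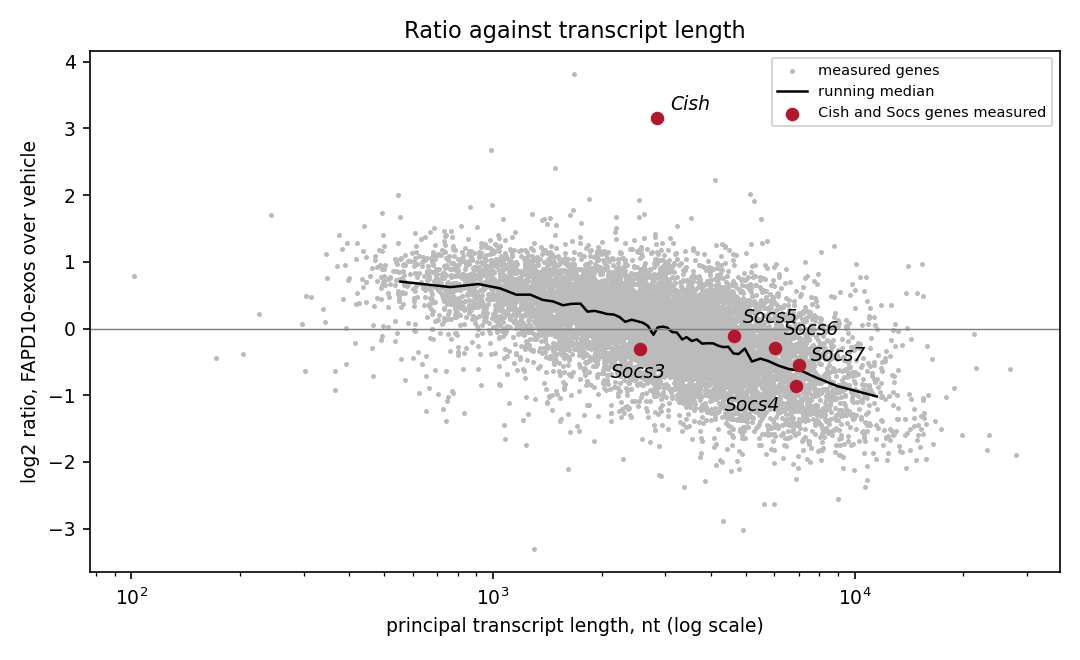
Log2 ratio of FAPD10-exos over vehicle against principal transcript length in nt (log axis) for measured genes with a known length (grey), with the running median of protein-coding genes (black) and the 6 measured members (red). Socs4, Socs5, Socs6 and Socs7 sit among genes of their length, at -0.23 to 0.26 from the running median, and Cish sits 3.15 above it.

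Between genes, levels were compared per kilobase of exon. In the FAPD10-exos library Socs4 led at 2.43 CPM per kb (2.24 to 2.63), followed by Socs7 at 1.69 (1.54 to 1.86), Socs5 at 1.66 (1.49 to 1.83) and Socs6 at 1.565 (1.45 to 1.69), 3 genes whose intervals overlap. Socs3 came next at 1.17 CPM per kb (0.967 to 1.39), then Cish at 0.368 (0.293 to 0.455) and Socs1 at 0.0580 (0.0213 to 0.126). In the vehicle library the order was Socs4 at 4.39 CPM per kb (4.14 to 4.66), Socs7 at 2.48 (2.30 to 2.67), Socs6 at 1.91 (1.78 to 2.05), Socs5 at 1.79 (1.62 to 1.96) and Socs3 at 1.45 (1.23 to 1.69). There Socs6 overlapped Socs5, and Socs5 overlapped Socs3. Cish followed at 0.0412 CPM per kb (0.0198 to 0.0758). Even in the FAPD10-exos library Cish was thus the least abundant of the measured members. Per kilobase of principal transcript, Socs6 at 2.94 CPM per kb was above Socs4 at 2.43 in the FAPD10-exos library, whereas in the vehicle library Socs6 at 3.59 was below Socs4 at 4.39.

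The make-up of the family's counts differed between the libraries. Cish made up 3.72% (2.98 to 4.58) of the family's counts in the FAPD10-exos and 0.307% (0.147 to 0.564) in the vehicle library, and Socs4 26.3% (24.5 to 28.2) in the FAPD10-exos and 35.1% (33.4 to 36.8) in the vehicle library. The whole family had 2259 counts in the FAPD10-exos and 3255 in the vehicle library (ratio 0.737, 0.698 to 0.778). Socs4 to Socs7 together had 2049 counts in the FAPD10-exos and 3087 in the vehicle library (ratio 0.705, 0.666 to 0.746). These sums are not corrected for length.

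The counts of the gene lists below stand beside the shares over all measured genes, which were 17.1% higher and 19.8% lower, or 10.2% and 12.1% after the transcript length correction. The transcript length correction was added after the data were seen. With the exon length correction, 1491 of 12264 measured genes were higher and 2006 lower, and some list counts differed. By it, 1 JAK or STAT gene and 3 receptor chains were lower, and 3 ligase machinery genes were higher. STAT5 targets then had 2 higher and 1 lower, and other SOCS box proteins 0 higher and 2 lower. The lists are short and were not tested, so nothing is read from their counts.

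Upstream of the family are the JAK and STAT genes. Of 11 listed, 10 were measured, and 0 were higher, beside 17.1% of all measured genes, and 3 lower, beside 19.8%. Their log2 ratios had a median of -0.37. Stat5a and Stat5b, the factors best known for driving Cish, had 3.06 and 5.68 CPM in the FAPD10-exos library, against 4.05 and 9.53 CPM in the vehicle library. Stat5b was 1.68-fold lower (1.41 to 2.004), while Stat5a, at a ratio of 0.757 (0.586 to 0.974), was under the threshold and its interval included 1 with counts halved. The other lower genes were Stat3, whose activation SOCS3 blocks, at 11.7 against 21.4 CPM, and Stat6, the carrier of the IL-4 signal, at 48.7 against 74.0 CPM. Jak1, which serves the IL-4 receptor, was 1.43-fold lower (1.36 to 1.51), and Jak2, which serves the GM-CSF receptor, had 42.3 against 42.9 CPM. After the transcript length correction the median was -0.04 and 0 of the 10 were lower, beside 12.1% of all genes corrected. Stat3 then stood at -0.58, just short of 1.5-fold, Stat6 at -0.38 and Stat5b at -0.25. With the exon length correction 1 of the 10 was lower, Stat6 at -0.61, so the count depends on the correction chosen.

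Cytokine receptor chains were led by the beta chains of the GM-CSF and IL-3 receptors at the low end. Of 26 listed, 20 had a count and 17 were measured, with 0 higher and 5 lower, beside 17.1% and 19.8% of all measured genes, the median in log2 being -0.14. Csf2rb, the shared beta chain, had 4.58 CPM in the FAPD10-exos and 10.6 CPM in the vehicle library and was 2.32-fold lower (1.93 to 2.80). Csf2rb2, the IL-3-specific mouse beta chain, was 3.95-fold lower (2.43 to 6.69) from 21 counts in the FAPD10-exos against 88 in the vehicle library. This pair is nearly identical in sequence, so how reads were divided between both genes is uncertain. Il13ra1, a chain of the type II IL-4 receptor, had 1.91 against 3.55 CPM, and Il6ra, the IL-6 receptor, 8.43 against 15.3 CPM. Il4ra, which binds IL-4, was below the filter with 32 counts in the FAPD10-exos and 36 in the vehicle library. Il2rg, the common gamma chain, had 13.2 against 11.2 CPM, a ratio of 1.17 (1.03 to 1.34) whose interval included 1 with counts halved. After the transcript length correction 4 of the 17 were lower, beside 12.1% of all genes corrected. They included Csf2rb at -0.89, Csf2rb2 at -1.60, Il13ra1 at -0.70 and Il6ra at -0.70, and the median of the list was 0.06.

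The next list holds the ubiquitin ligase machinery of the SOCS box, including the genes of NEDD8 and of enzymes that work with it. All 12 listed were measured, with 3 higher and 0 lower, beside 17.1% and 19.8% of all measured genes, the median in log2 being 0.30. Rbx1, a RING subunit of cullin ligases, had 27.8 CPM in the FAPD10-exos and 12.5 CPM in the vehicle library and was 2.22-fold higher (1.99 to 2.48). Elob, which encodes elongin B, had 11.1 against 7.04 CPM, and Rnf7, the RING subunit that pairs with cullin 5, 32.7 against 21.7 CPM. Ube2f, the conjugating enzyme that puts NEDD8 on cullin 5, was just under the threshold at 1.48 (1.27 to 1.73). These transcripts are mostly short, and after the transcript length correction 2 of the 12 were higher, beside 10.2% of all genes corrected. The median was then -0.03, and Elob stood at -0.04 and Rnf7 at 0.08, while Rbx1 stood at 0.78 and Ube2f at 1.04.

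Other proteins with a SOCS box were mixed. Of 28 listed, 21 had a count and 15 were measured, with 1 higher and 2 lower, the median in log2 being -0.18. Among the ankyrin-repeat members, Asb8 was 1.77-fold higher (1.498 to 2.09) at 10.8 against 6.09 CPM, and Asb5 and Asb1 were 1.79-fold and 1.69-fold lower from 68 and 48 counts in the FAPD10-exos, against 129 and 86 in the vehicle library. Tulp4 had a ratio of 0.671 (0.630 to 0.716), within 1.5-fold, and stood at 0.34 in log2 after the transcript length correction, on the other side of 0. After that correction 1 of the 15 was higher and 3 were lower, with a median of -0.22.

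Other brakes on JAK-STAT signalling were split. All 13 listed were measured, with 2 higher and 4 lower, the median in log2 being -0.33. Ptpn6, the gene of the phosphatase SHP-1 of blood cells, was the most abundant at 964.5 CPM in the FAPD10-exos and 590.3 CPM in the vehicle library (ratio 1.63, 1.61 to 1.66). The other higher gene was Ptpn2, whose phosphatase acts on JAKs and STATs, at 80.2 against 51.4 CPM. On the lower side, Cblb and Cbl, ubiquitin ligases of receptor signalling, were 2.26-fold (1.55 to 3.35) and 1.74-fold (1.62 to 1.87) lower. Pias3, an inhibitor of STAT3, was 1.76-fold lower (1.18 to 2.67) from 39 counts in the FAPD10-exos and 73 in the vehicle library, an interval that included 1 with counts halved. After the transcript length correction 0 were higher and 2 lower, the median was -0.08, Ptpn6 stood at 0.53 and Cbl at 0.21, on the other side of 0.

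Genes known as STAT5 targets formed another list. Of 14 listed, all had a count and 9 were measured, with 1 higher and 1 lower, beside 17.1% and 19.8% of all measured genes, and a median of 0.13 in log2. After the transcript length correction 1 was higher and 2 were lower, beside 10.2% and 12.1%, and the median was -0.16. Without the correction the higher one was Igf1, insulin-like growth factor 1, at 49.0 against 3.49 CPM, and the lower one Bcl2l1, the survival gene of BCL-XL, at 20.0 against 40.7 CPM and 2.04-fold lower (1.87 to 2.24). Cdkn1a, which encodes the cell cycle inhibitor p21, and Ccnd1, cyclin D1, had ratios of 0.775 (0.624 to 0.960) and 0.776 (0.751 to 0.803). The interval of Cdkn1a included 1 with counts halved, and after the transcript length correction it stood at -0.59.

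The last list holds genes of proteins reported to bind SOCS family members. Of 12 listed, 7 had a count and 6 were measured, with 0 higher and 2 lower, the median in log2 being -0.53. After the transcript length correction 0 were higher and 1 was lower, and the median was -0.04. Tirap, the adaptor Mal that SOCS1 is known to target, was 2.04-fold lower (1.77 to 2.35) at 8.01 against 16.3 CPM and stood at -0.68 after the correction. Traf6, a ubiquitin ligase downstream of Toll-like receptors, was 1.66-fold lower (1.36 to 2.04), and Syk and Insr, which encode a tyrosine kinase and the insulin receptor, had ratios of 0.668 (0.622 to 0.717) and 0.720 (0.603 to 0.860).

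**Figure D4:**
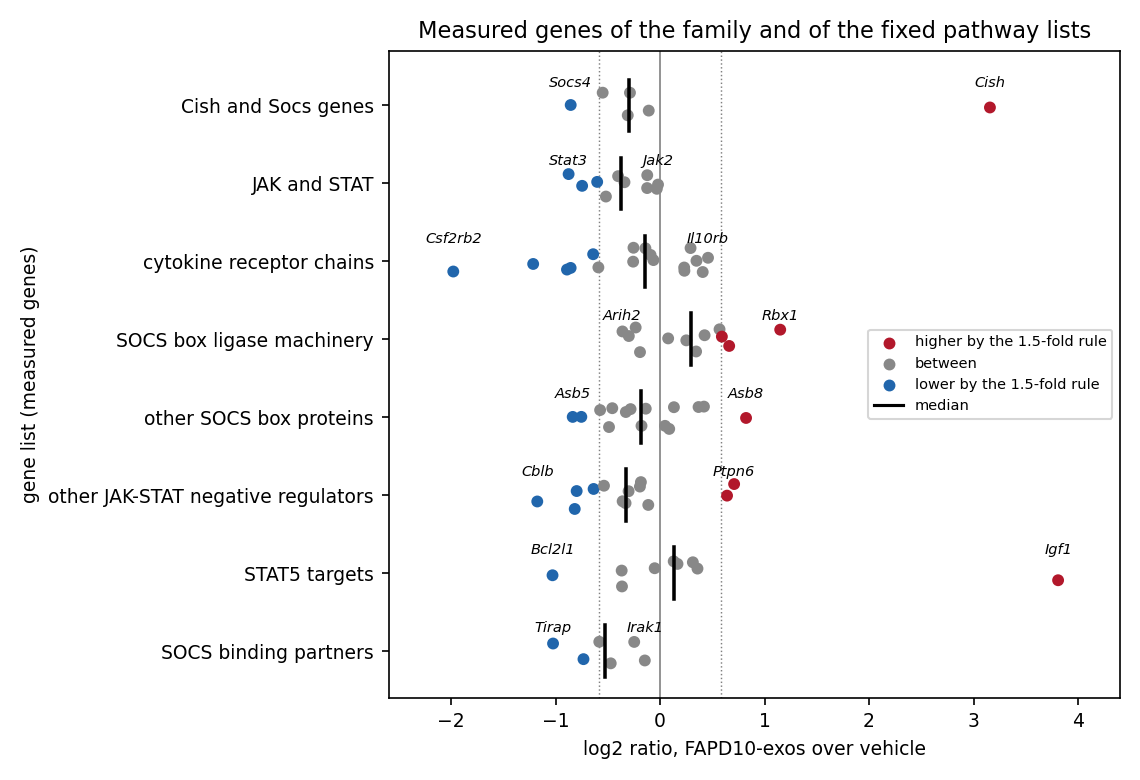
Log2 ratio of FAPD10-exos over vehicle for the measured genes of the family and of the 7 pathway lists, without correction for length. Each point is a gene, coloured by the 1.5-fold rule, black bars are list medians, dotted lines mark 1.5-fold, and the lowest and highest gene of each row is named. Cish at 3.16 and Igf1 at 3.81 stand far to the right of every other gene shown. The family and the lists were chosen with earlier results of these data known, so nothing is read from this.

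The 5 measured genes nearest to Cish in their pattern were listed. Nearness was the distance in log2 CPM, with 0.1 CPM added, over the 2 libraries, so it holds no more than a level and a ratio. Predicted and clone names were left out. Chchd10, of the mitochondrial intermembrane space, was nearest with 70 counts in the FAPD10-exos and 14 in the vehicle library. It was followed by H2af-ps2, named as a pseudogene, with 60 against 12 counts, and Cdk20, a cyclin-dependent kinase, with 62 against 14. Tnfsf14, the cytokine LIGHT, had 58 counts in the FAPD10-exos and 16 in the vehicle library, and Plekhf1, a lysosomal adaptor, 64 and 18. Their ratios ran from 3.78 (2.21 to 6.77) for Plekhf1 to 5.31 (2.96 to 10.2) for Chchd10, all below that of Cish but with intervals that overlap its own. All 5 were under 0.5 CPM in the vehicle library and passed the filter through the FAPD10-exos library alone. High ratios were thus fixed by the filter and by the choice of genes near Cish.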

How the data were processed

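The authors deposited 1 table of counts per gene symbol for both libraries, whole numbers that were not normalised, in the layout of featureCounts per the file headers. The submitters' processing notes name featureCounts, STAR 2.5.3a, fastp 0.23.4 and the build GRCh38, which is human and cannot be that of mouse symbols. The mouse build, annotation, strand setting and handling of multiply matching reads are not named in the sources used. Each column was tied to its sample through the label descriptions.

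With 1 library per group edgeR's quasi-likelihood test could not be fitted. Counts were scaled by TMM (edgeR 4.0.16, R 4.3.3), with factors of 0.957 for the FAPD10-exos and 1.05 for the vehicle library, so 1 CPM was 35.6 counts in the FAPD10-exos and 37.8 in the vehicle library. Where a count was 0, 0.5 was added to both counts. Length corrections subtracted a running median over 50 bins, by the exon length of the deposited table or by the principal transcript of GENCODE M21. The correction by transcript length was added after the data were seen. Alternatives were other scalings (DESeq2 1.42.0 for median of ratios), filters, thresholds, halved counts and 1 CPM added. The ratio and interval functions were tested on simulated independent Poisson counts. Such counts lack the excess of even counts seen here, so that test does not show how well the intervals hold in these libraries. The members, the 7 gene lists and the rules were chosen with earlier results of these data known. Named list genes were up to 4 per list with the largest absolute log2 ratio among those with at least 100 counts in both libraries together. Also named were 8 fixed genes and the 5 genes nearest to Cish. Adgre1, Ptprc, Ptpn2, Gm17041 and Gm17040 were named after their values were seen, as were the markers at 0. Promoter windows are from RefSeq on GRCm38.p6. Other computation used matplotlib 3.10.9, scipy 1.17.1, pandas 2.3.3 and numpy 2.4.6 under Python 3.11.15.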

Additional observations from a re-analysis of the deposited data

How the results depend on the processing

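Every setting here was run on 1 library per group, so none shows how cultures vary, and no replicate could be left out. No paired analysis was possible because each group held 1 library and the labels carry no replicate numbers. Cish was higher and Socs4 lower in ratio under every scaling and length correction, while Socs5, Socs6 and Socs7 and several list medians changed sign with a length correction. Of these, Socs7 was past 1.5-fold at -0.68 with total-count and -0.59 with median-of-ratios scaling. The uncorrected counts were 1 member higher and 1 lower, beside 2097 and 2429 of 12264 measured genes, or 17.1% and 19.8%. Of the pathway list genes, whose measured numbers are given list by list above, 7 were higher and 17 lower. The filters and the transcript length correction change how many genes are counted, so counts under them are not directly comparable with these. With total-count scaling 2 members were lower and 3 list genes higher, beside 3060 of all measured genes lower and 1458 higher. With median-of-ratios scaling 2 members were lower, beside 2630 of all measured genes. With the exon length correction 0 members and 10 list genes were lower, beside 2006 of all measured genes. With the transcript length correction, chosen after seeing the data, 0 members were lower and their median was 0.16. Of 9975 genes, 1014 were then higher and 1208 lower, or 10.2% and 12.1%, and 4 list genes were higher. Without a filter 2 members were higher, as Socs1 joined Cish, beside 2713 of the 23036 genes with a count. With a filter at 10 CPM, which removes Cish, 0 members were higher, 1162 genes were higher and 1372 lower, and 8 list genes were lower. At a 2-fold threshold 0 members were lower, 514 genes were higher and 1059 lower, and 2 list genes were higher and 5 lower. Cish had a log2 ratio above 3 under each scaling and length correction, and 1.41 with 1 CPM added to both values, where Socs1 stood at 0.22. Corrected by exon length, log2 ratios were -0.56 for Socs4, 0.12 for Socs5, 0.25 for Socs6 and -0.24 for Socs7, and by transcript length -0.23, 0.26, 0.24 and 0.078 in the same order. The median of the ligase machinery was 0.17 with total-count scaling and 0.16 with the 10 CPM filter. With the exon length correction the medians were -0.063 for JAK and STAT genes, 0.10 for the ligase machinery and -0.093 for SOCS partners. With the transcript length correction they were -0.042 for JAK and STAT genes, 0.062 for receptor chains, -0.027 for the ligase machinery, -0.082 for other negative regulators and -0.043 for SOCS partners. The cause of the length trend was not tested. Depth limits Socs1 and Socs2 most, since 3 counts were 0.0843 CPM in the FAPD10-exos and 0.0794 CPM in the vehicle library.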
